A study of Homo sapiens with 18 samples.

Results

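LNCaP cells depleted of E2F1 were compared directly with LNCaP cells depleted of E2F2, both grown with the synthetic androgen R1881. The comparison used 6 of the 18 RNA-seq libraries of the series, 3 that received the E2F1 siRNA pool with R1881 and 3 that received the E2F2 siRNA pool with R1881, and covered every gene with enough counts. LNCaP is an established, androgen-responsive line of human prostate cancer. All cells were seeded in androgen-deprived medium with 9% charcoal-stripped serum, transfected the next day with Lipofectamine 2000 and 1 siRNA pool (E2F1, E2F2 or a non-targeting control), and later given 0.1 nM R1881 or ethanol vehicle. The series text places the treatment 42 h after transfection, a sample label 48 h after it, and harvest followed 48 h of treatment. The 3 libraries of control siRNA with R1881 are given beside the compared groups, and the same pools with vehicle serve to show where the contrast differs without androgen. Each gene was targeted by 1 pool, so effects of a pool beyond its target cannot be told apart from those of the target. The labels call the libraries biological replicates without naming separate cultures or days, so the p-values measure the spread between these libraries.

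E2F1 and E2F2 are activator members of the E2F family, which bind DNA as dimers with a DP protein and switch on the genes for entry into S phase. In quiescent cells the pocket proteins RB1, RBL1 and RBL2 hold E2F factors inactive, and phosphorylation by cyclin-dependent kinases releases them. In prostate cancer cells androgen promotes this release and proliferation. E2F3 is the other activator, E2F4 and E2F5 act mainly with the pocket proteins as repressors, and E2F7 and E2F8 are atypical repressors that are themselves E2F targets.

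The libraries compared held 11862217 to 13961943 gene counts, and levels are given as CPM, edgeR's read counts scaled to library size with TMM factors. Every log2 value is E2F1 siRNA minus E2F2 siRNA under R1881 unless stated, with its standard error, and adjusted p-values come from the edgeR quasi-likelihood test with Benjamini-Hochberg adjustment over 15185 genes. A gene is called, and described as higher or lower, where the adjusted p is below 0.05. The first principal component separated the pools (62.8% of the variance) and the second set replicate 3 of both pools apart (15.4%). A chi-square test of counts over genes gave 2.23 and 2.49 per degree of freedom between replicates 1 and 2 of each pool. Against replicate 3 it gave 7.62 to 10.4. The deviation of replicate 3 from its group mean went with GC content across genes (r = 0.55 with E2F1 siRNA and 0.42 with E2F2 siRNA), whereas the contrast itself had r = 0.083 with GC content. Markers of luminal prostate cells were detected throughout, 11 of 11 tested, with a summed level of 10175 to 10917 CPM with E2F1 siRNA and 9333 to 10422 CPM with E2F2 siRNA. Because RNA was taken in bulk, fewer cells in a given state and less RNA per cell cannot be told apart in any result below.

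The pools differed in many genes. Of 15185 genes tested, 3648 (24.0%) were called, 1664 (11.0%) higher with E2F1 siRNA and 1984 (13.1%) lower. The larger differences lay mostly in 1 direction: 216 genes (1.42%) were called and at least 2-fold higher with E2F1 siRNA, and 804 (5.29%) at least 2-fold lower, 6.72% in all. The 3 libraries of one pool did not overlap the 3 of the other for 7225 genes (47.6%), and for 3622 of the 3648 called genes (99.3%). Lack of overlap, where stated below for a called gene, therefore adds little to the call. The median log2 value over all tested genes was -0.0055, with quartiles of -0.32 and 0.26. Genes of the cell cycle and of the ribosome were higher with E2F1 siRNA, and CDKN1A, GDF15, NEAT1, LYN, S1PR3 and PEG3 were among those lower with it. Counts of calls were larger without replicate 3, with 6810 genes called when it was left out of every group.

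**Figure D1:**
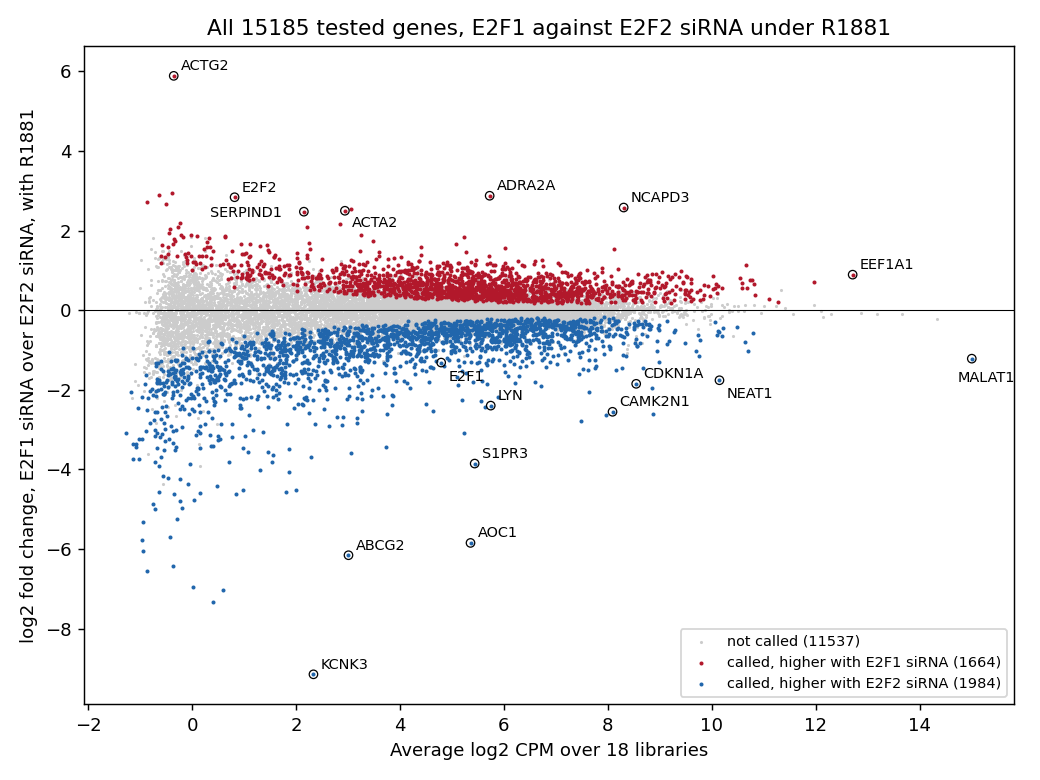
Each point is 1 of the 15185 tested genes, with the average level (log2 CPM) on the horizontal axis and the log2 difference, E2F1 siRNA minus E2F2 siRNA under R1881, on the vertical axis. Coloured points are the 1664 genes called higher and the 1984 called lower with E2F1 siRNA; the points farthest from 0 lie mostly on the lower side.

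Each pool left less of its own target than the other pool did. E2F1, at chr20:33675683-33686404 of GRCh38 on the minus strand (GENCODE 29), stood at 10.1, 8.69 and 10.3 CPM with E2F1 siRNA and 25.4, 21.5 and 25.5 CPM with E2F2 siRNA, against 73.4, 68.6 and 81.2 CPM with control siRNA. The groups did not overlap, and E2F1 was 2.49-fold lower with its own pool (log2 -1.32 ± 0.17, adjusted p = 3.41e-05). E2F2, at chr1:23506430-23531220 on the minus strand, stood at 1.15, 1.68 and 1.53 CPM with E2F1 siRNA and 0.0845, 0.0836 and 0.416 CPM with E2F2 siRNA, against 3.34, 2.36 and 4.59 CPM with control siRNA. E2F2 was higher with the E2F1 pool (log2 2.84 ± 0.61, adjusted p = 0.00289). Its level with E2F2 siRNA was at most 0.416 CPM, so the size of this difference rests on few counts. The value was log2 3.97 without E2F2 siRNA replicate 3, the library with the highest E2F2 level of its group. Without E2F2 siRNA replicate 2 it was log2 2.49. Relative to control siRNA, which both of these comparisons share, E2F1 differed by log2 -2.94 ± 0.17, adjusted p = 2.50e-07, with E2F1 siRNA and by log2 -1.62 ± 0.16, adjusted p = 1.69e-06, with E2F2 siRNA. For E2F2 the difference from control was log2 -1.22 ± 0.38, adjusted p = 0.0586, with E2F1 siRNA, which was not called, and log2 -4.05 ± 0.54, adjusted p = 3.73e-05, with E2F2 siRNA. The comparison was thus one of less E2F1 against less E2F2, in cells where E2F1 was below control with both pools.

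Among the other E2F genes, E2F3, E2F7, E2F8 and TFDP1 were higher with E2F1 siRNA, 4 of the 8 listed E2F and DP genes other than the targets (median log2 0.26). E2F8 stood at 12.4, 12.3 and 13.8 CPM with E2F1 siRNA and 7.35, 6.44 and 8.40 CPM with E2F2 siRNA (log2 0.79 ± 0.17, adjusted p = 0.00259). E2F3 stood at 62.5, 64.6 and 54.3 CPM with E2F1 siRNA and 45.0, 39.4 and 37.4 CPM with E2F2 siRNA (log2 0.58 ± 0.12, adjusted p = 0.00203). E2F3 with E2F1 siRNA lay at the level of control siRNA (-0.022 on the log2 scale), whereas both atypical repressors lay below control with either pool: E2F8 differed by -1.13 and -1.93, E2F7 by -1.36 and -1.95, with E2F1 and E2F2 siRNA respectively. E2F7 (log2 0.59, adjusted p = 0.0163) was not called without E2F1 siRNA replicate 2 or E2F2 siRNA replicate 2 (adjusted p up to 0.0798). TFDP1, the DP partner (log2 0.31, adjusted p = 0.0188), was not called without E2F2 siRNA replicate 2 or E2F1 siRNA replicate 3 (adjusted p up to 0.0824) or with no filter on low counts. E2F4 (log2 0.22, adjusted p = 0.448), E2F5 (log2 -0.50, adjusted p = 0.336), E2F6 (log2 -0.043, adjusted p = 0.900) and TFDP2 (log2 0.087, adjusted p = 0.438) were not called. The count of higher members was 2 without E2F2 siRNA replicate 2.

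The pocket protein RBL2, a repressor that accumulates in resting cells, was lower with E2F1 siRNA, and the proliferation factors FOXM1 and MYBL2 were higher. RBL2 stood at 157, 155 and 134 CPM with E2F1 siRNA and 244, 257 and 226 CPM with E2F2 siRNA (log2 -0.71 ± 0.16, adjusted p = 0.00382), and the control libraries, at 158, 154 and 132 CPM, lay at the level of the E2F1 pool. FOXM1, which drives mitotic genes, stood at 109.9, 110.2 and 128 CPM with E2F1 siRNA and 57.6, 47.0 and 57.9 CPM with E2F2 siRNA (log2 1.10 ± 0.17, adjusted p = 2.30e-04). MYBL2, a partner of the MuvB core, stood at 77.6, 78.1 and 85.9 CPM with E2F1 siRNA and 43.7, 37.0 and 46.8 CPM with E2F2 siRNA (log2 0.92 ± 0.15, adjusted p = 3.78e-04). For FOXM1 and MYBL2 no library of one pool overlapped the other, and control siRNA was above both pools, at 192, 189 and 224 CPM and 146, 139.9 and 164 CPM. The list of 10 pocket protein and DREAM complex genes also holds the proliferation factors FOXM1 and MYBL2. Its 3 higher genes were FOXM1, MYBL2 and LIN54, and RBL2 was the 1 lower gene, against 11.0% and 13.1% of all tested genes. RBL1 (log2 0.63, adjusted p = 0.0544) and RB1 (log2 -0.17, adjusted p = 0.758) were not called. LIN54 (log2 0.35, adjusted p = 0.0286) was not called without E2F1 siRNA replicate 1, E2F1 siRNA replicate 2, E2F2 siRNA replicate 2, E2F1 siRNA replicate 3 or E2F2 siRNA replicate 3 (adjusted p up to 0.131). The count of higher genes was 7 without replicate 3 of every group.

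Mitotic cyclins were higher with E2F1 siRNA and cyclin D1 was lower. CCNB2 stood at 46.5, 44.9 and 46.9 CPM with E2F1 siRNA and 28.3, 19.8 and 23.6 CPM with E2F2 siRNA (log2 0.95 ± 0.14, adjusted p = 1.12e-04). CCNA2, the cyclin of S and G2 phase, stood at 46.3, 47.5 and 45.8 CPM with E2F1 siRNA and 28.6, 24.1 and 24.9 CPM with E2F2 siRNA (log2 0.85 ± 0.17, adjusted p = 0.00162). CCND1, the cyclin that starts RB1 phosphorylation, stood at 427, 402 and 384 CPM with E2F1 siRNA and 543, 554 and 511 CPM with E2F2 siRNA (log2 -0.41 ± 0.061, adjusted p = 1.57e-04). None of these 3 cyclins overlapped between the pools. Of 10 cyclin genes tested, 4 were higher and 1 was lower. The higher count was 2 without E2F2 siRNA replicate 2 or E2F1 siRNA replicate 3, and the lower count 2 without replicate 3 of every group. CCNB1 (log2 0.39, adjusted p = 0.0457) and CCNF (log2 0.56, adjusted p = 0.0117) were the other higher ones. CCNF was not called without E2F2 siRNA replicate 2 or E2F1 siRNA replicate 3 (adjusted p up to 0.0607). CCNB1 was not called without E2F1 siRNA replicate 1, E2F1 siRNA replicate 2, E2F2 siRNA replicate 2, E2F1 siRNA replicate 3 or E2F2 siRNA replicate 3 (adjusted p up to 0.178). The E2F target cyclins of G1, CCNE1 (log2 0.090, adjusted p = 0.665) and CCNE2 (log2 0.34, adjusted p = 0.508), were not called, nor were CCND3 (log2 -0.24, adjusted p = 0.382), CCNG1 (log2 0.036, adjusted p = 0.976) and CCNG2 (log2 0.27, adjusted p = 0.658).

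Of 11 cyclin-dependent kinases, their subunits and phosphatases, 6 were higher with E2F1 siRNA and the other 5 were not called (median log2 0.71). CKS2, a kinase subunit, stood at 54.3, 53.4 and 51.7 CPM with E2F1 siRNA and 32.0, 24.3 and 27.5 CPM with E2F2 siRNA (log2 0.93 ± 0.10, adjusted p = 8.49e-06). CKS1B, which works with SKP2 to destroy p27, had log2 0.91, adjusted p = 1.33e-04, and the phosphatases CDC25B and CDC25C had log2 0.84, adjusted p = 5.71e-04, and log2 0.71, adjusted p = 0.00247. CDK4 (log2 0.47, adjusted p = 9.21e-04) and CDK2 (log2 0.39, adjusted p = 0.00665), the kinases of G1 and S phase, were higher by less. CDK1, the mitotic kinase, stood at 142, 148 and 113 CPM with E2F1 siRNA and 92.5, 76.9 and 71.7 CPM with E2F2 siRNA. It did not pass the threshold (log2 0.74 ± 0.36, adjusted p = 0.163). Its groups did not overlap, as was so for 47.6% of all tested genes. CDC25A stood at 27.9, 25.6 and 27.6 CPM with E2F1 siRNA and 28.1, 28.6 and 26.1 CPM with E2F2 siRNA (log2 -0.030 ± 0.10, adjusted p = 0.872), which was not called, at -1.04 and -1.01 relative to control. WEE1 (log2 -0.059, adjusted p = 0.901), PKMYT1 (log2 0.89, adjusted p = 0.0908) and CDK6 (log2 0.022, adjusted p = 0.971) were not called.

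The CDK inhibitor CDKN1A was much lower with E2F1 siRNA than with E2F2 siRNA. CDKN1A, which encodes p21 and is a target of p53, stood at 121, 121 and 139 CPM with E2F1 siRNA and 399, 480.1 and 498 CPM with E2F2 siRNA, with 118, 104 and 119 CPM in the control libraries. The difference was log2 -1.85 ± 0.12, adjusted p = 3.63e-08. The libraries with E2F1 siRNA lay near control, and those with E2F2 siRNA lay above every other library with R1881. CDKN2D, another inhibitor, was also lower (log2 -0.81, adjusted p = 0.00625). CDKN2A, an E2F target whose transcripts encode p16 and ARF, stood at 12.1, 12.7 and 13.3 CPM with E2F1 siRNA and 5.07, 4.18 and 6.32 CPM with E2F2 siRNA (log2 1.29 ± 0.23, adjusted p = 8.05e-04). CDKN3, a mitotic phosphatase (log2 0.97, adjusted p = 3.09e-05), and SKP2, the ubiquitin ligase subunit that removes p27 (log2 0.69, adjusted p = 0.00101), were higher as well, so 3 of the 9 genes of the list were higher and 2 lower. CDKN1B, which encodes p27 itself (log2 -0.084, adjusted p = 0.572), CDKN1C (log2 -0.61, adjusted p = 0.434), CDKN2B (log2 -0.35, adjusted p = 0.248) and CDKN2C (log2 0.24, adjusted p = 0.341) were not called.

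**Figure D2:**
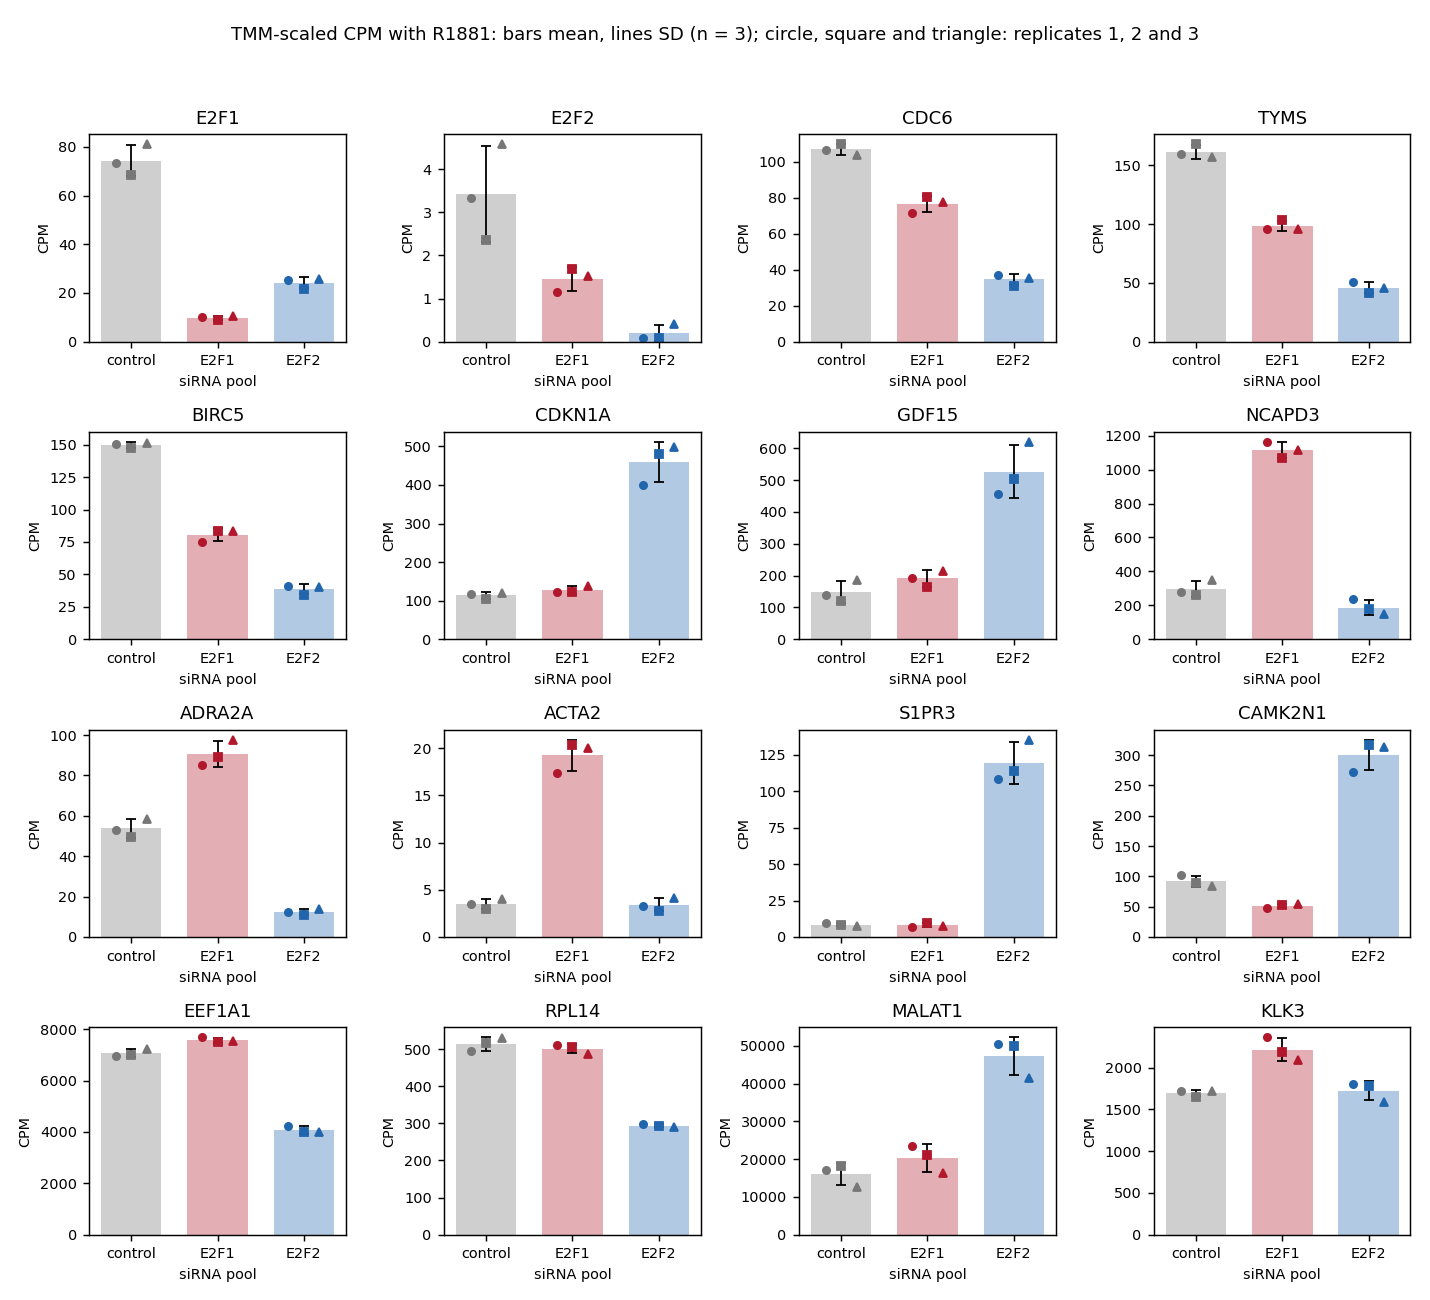
Points are the levels of 16 genes (CPM, linear axis from 0) in each of the 3 libraries with control, E2F1 and E2F2 siRNA under R1881, and bars are means with SD (n = 3). E2F1, CDKN1A, GDF15 and S1PR3 are lower with E2F1 than with E2F2 siRNA and E2F2, CDC6, TYMS, BIRC5 and NCAPD3 are higher, with no overlap between these pools.

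Genes that license replication origins were higher with E2F1 siRNA. Of 23 tested, 16 were higher and 1 was lower (median log2 0.66), against 11.0% and 13.1% of all tested genes. CDC6, which loads the MCM helicase on origins, stood at 71.5, 80.7 and 77.4 CPM with E2F1 siRNA and 37.2, 30.9 and 35.5 CPM with E2F2 siRNA (log2 1.15 ± 0.093, adjusted p = 4.33e-07). ORC6, a subunit of the origin recognition complex, stood at 21.7, 23.1 and 23.1 CPM with E2F1 siRNA and 12.0, 9.79 and 10.7 CPM with E2F2 siRNA (log2 1.06 ± 0.12, adjusted p = 8.04e-06). MCM4, a helicase subunit, stood at 166, 177 and 173 CPM with E2F1 siRNA and 110.3, 97.9 and 115 CPM with E2F2 siRNA (log2 0.68 ± 0.077, adjusted p = 1.19e-05). In these 3 genes every library with E2F1 siRNA lay above every library with E2F2 siRNA and below the control mean: relative to control, CDC6 differed by -0.48 with E2F1 siRNA and -1.63 with E2F2 siRNA, and MCM4 by -0.81 and -1.49. ORC1 had the same direction (log2 1.02, adjusted p = 1.64e-05). ORC5 was the lower member (log2 -0.97, adjusted p = 0.0203), not called without E2F2 siRNA replicate 1, E2F1 siRNA replicate 2, E2F2 siRNA replicate 2 or E2F1 siRNA replicate 3 (adjusted p up to 0.0871). The count of lower genes was 0 without E2F2 siRNA replicate 1, E2F1 siRNA replicate 2, E2F2 siRNA replicate 2 or E2F1 siRNA replicate 3 and 2 without replicate 3 of every group.

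Proteins of the replication fork moved in the same direction. Of 26 tested, 15 were higher with E2F1 siRNA and the other 11 were not called (median log2 0.49), and all 26 values were above 0. FEN1, the flap endonuclease of Okazaki fragments, stood at 82.5, 83.7 and 92.3 CPM with E2F1 siRNA and 48.9, 45.0 and 47.8 CPM with E2F2 siRNA (log2 0.87 ± 0.080, adjusted p = 1.43e-06). CLSPN, which couples the fork to checkpoint signalling, stood at 39.8, 40.4 and 38.6 CPM with E2F1 siRNA and 20.3, 17.1 and 22.1 CPM with E2F2 siRNA (log2 1.00 ± 0.13, adjusted p = 4.45e-05). The groups did not overlap for either gene, nor for RFC5, a clamp loader subunit (log2 0.70, adjusted p = 1.42e-05), or TIMELESS, a fork protection factor (log2 0.84, adjusted p = 6.56e-05). The count of higher members was 7 without E2F2 siRNA replicate 2 and 9 without E2F1 siRNA replicate 3.

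Enzymes that supply deoxynucleotides followed, with 7 of 12 higher with E2F1 siRNA and the other 5 not called (median log2 0.36). TYMS, thymidylate synthase, stood at 95.9, 104 and 96.2 CPM with E2F1 siRNA and 50.5, 41.1 and 45.9 CPM with E2F2 siRNA (log2 1.11 ± 0.085, adjusted p = 2.53e-07). TK1, thymidine kinase, stood at 74.7, 88.6 and 96.0 CPM with E2F1 siRNA and 34.2, 32.2 and 43.7 CPM with E2F2 siRNA (log2 1.24 ± 0.19, adjusted p = 2.07e-04). DUT, which clears dUTP (log2 0.52, adjusted p = 2.53e-04), and DCTD, dCMP deaminase (log2 0.50, adjusted p = 2.77e-04), were higher by smaller steps. No library of one pool reached into the other pool for any of the 4. DCTD with E2F1 siRNA lay at the control level (0.053), while TYMS lay below it (-0.71 with E2F1 siRNA, -1.82 with E2F2 siRNA).

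E2F sites were found near the start of many of these genes. The letters TTTCCCGC, TTTGGCGC, TTTCGCGC or TTTGCCGC on either strand were found in 5.50% of the promoter windows (250 bases before to 50 after the start) of 10189 tested protein-coding genes with a window in the RefSeq table (GRCh38.p14), of 12342 in all. The share was 7.81% among genes called higher with E2F1 siRNA and 3.85% among those called lower. It was 10 of 20 windows for the origin licensing genes, 9 of 23 for the fork proteins and 2 of 10 for the deoxynucleotide enzymes. The windows of 4 replication genes are printed here to make these matches visible, from 200 bases before the start to 20 after it. Each is read 5′ to 3′ on the strand of the gene, with the match in capitals. All 4 genes were picked with their values and matches seen, from genes called higher whose window held a match. A match in the opposite orientation appears as its reverse complement (GCGGGAAA for TTTCCCGC).

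TYMS: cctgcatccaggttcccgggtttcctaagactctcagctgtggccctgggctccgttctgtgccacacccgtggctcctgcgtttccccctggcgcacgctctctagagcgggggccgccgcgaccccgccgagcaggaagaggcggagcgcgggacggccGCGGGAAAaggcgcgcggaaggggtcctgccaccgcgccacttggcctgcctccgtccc
CDC6: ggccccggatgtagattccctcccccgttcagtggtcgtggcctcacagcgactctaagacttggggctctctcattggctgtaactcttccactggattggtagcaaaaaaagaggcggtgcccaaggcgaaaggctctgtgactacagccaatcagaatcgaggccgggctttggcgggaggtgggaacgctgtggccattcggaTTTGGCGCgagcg
CLSPN: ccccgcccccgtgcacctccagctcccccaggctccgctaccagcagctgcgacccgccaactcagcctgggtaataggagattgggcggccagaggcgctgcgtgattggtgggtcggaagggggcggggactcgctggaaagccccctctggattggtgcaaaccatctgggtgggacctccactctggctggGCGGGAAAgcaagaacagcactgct
MCM7: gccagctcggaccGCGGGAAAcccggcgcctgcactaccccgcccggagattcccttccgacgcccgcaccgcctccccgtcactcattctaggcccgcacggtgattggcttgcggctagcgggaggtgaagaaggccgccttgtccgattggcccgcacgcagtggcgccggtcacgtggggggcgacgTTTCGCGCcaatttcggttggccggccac

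The TYMS window lies at chr18:657453-657672, plus strand, and its match begins at base -39. The CDC6 window lies at chr17:40287679-40287898, plus strand, and its match begins 8 bases into the transcript. CLSPN lies at chr1:35769959-35770178, minus strand, with a match at -5, and MCM7, a helicase subunit chosen after its value was seen (log2 0.97 ± 0.13, adjusted p = 5.03e-05), at chr7:100101378-100101597, minus strand, with matches at -187 and -9. A match is a description of the letters and was not tested as a binding site.

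Mitotic genes were higher with E2F1 siRNA in the same way. Of 20 mitotic kinases and spindle factors, 15 were higher with E2F1 siRNA and the other 5 were not called (median log2 0.79), with all 20 values above 0. BIRC5, survivin, a subunit of the chromosomal passenger complex, stood at 74.9, 83.4 and 83.7 CPM with E2F1 siRNA and 41.3, 34.0 and 40.2 CPM with E2F2 siRNA (log2 1.07 ± 0.094, adjusted p = 9.25e-07). TPX2, which activates the kinase AURKA on the spindle, stood at 132, 135 and 129.9 CPM with E2F1 siRNA and 75.4, 63.7 and 75.6 CPM with E2F2 siRNA (log2 0.88 ± 0.089, adjusted p = 3.29e-06). AURKA itself stood at 43.7, 43.8 and 47.2 CPM with E2F1 siRNA and 22.4, 23.8 and 23.5 CPM with E2F2 siRNA (log2 0.95 ± 0.11, adjusted p = 1.13e-05). All 3 genes were higher in each library with E2F1 siRNA than in any with E2F2 siRNA, and all 6 libraries lay below control (BIRC5 -0.89 and -1.96, TPX2 -0.88 and -1.76 with E2F1 and E2F2 siRNA). RACGAP1, a cytokinesis factor, had log2 0.71, adjusted p = 3.32e-05.

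Of 13 kinesins, the motors of the spindle, 8 were higher and the other 5 were not called (median log2 0.61). KIF4A, a chromosome motor, stood at 50.6, 53.7 and 49.9 CPM with E2F1 siRNA and 26.9, 25.0 and 26.9 CPM with E2F2 siRNA (log2 0.97 ± 0.093, adjusted p = 2.23e-06). KIF2C, which depolymerizes kinetochore microtubules, stood at 29.5, 33.5 and 35.7 CPM with E2F1 siRNA and 15.6, 12.7 and 17.0 CPM with E2F2 siRNA (log2 1.12 ± 0.17, adjusted p = 1.59e-04). KIFC1 (log2 0.92, adjusted p = 2.09e-04) and KIF20A (log2 0.64, adjusted p = 0.00125) were higher too, and the count was 13 without replicate 3 of every group. The kinetochore and checkpoint list had 12 of 23 higher and 11 not called (median log2 0.75), and its count was 20 without replicate 3 of every group. PTTG1, securin, stood at 42.5, 41.7 and 40.4 CPM with E2F1 siRNA and 20.5, 15.7 and 18.8 CPM with E2F2 siRNA (log2 1.18 ± 0.12, adjusted p = 2.74e-06). UBE2C (log2 1.13, adjusted p = 8.60e-05) and CDC20 (log2 1.12, adjusted p = 1.63e-04) drive the anaphase-promoting complex, and CENPN (log2 0.92, adjusted p = 1.75e-04) is a centromere protein. CENPN differed from the other 3 in its place relative to control: with E2F1 siRNA it lay at 0.12 (adjusted p = 0.731) and with E2F2 siRNA at -0.80, whereas PTTG1 lay below control with both pools (-0.74 and -1.92).

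NCAPD3, a subunit of condensin II, stood out from its list. NCAPD3, at chr11:134150119-134225454 on the minus strand, stood at 1163, 1069 and 1115 CPM with E2F1 siRNA and 234, 178 and 148 CPM with E2F2 siRNA (log2 2.58 ± 0.15, adjusted p = 1.22e-08), 5.97-fold higher with E2F1 siRNA. It was above control with E2F1 siRNA (log2 1.91 ± 0.14, adjusted p = 1.57e-06) and below control with E2F2 siRNA (log2 -0.67 ± 0.14, adjusted p = 0.00169), with control libraries at 279.9, 260.1 and 352 CPM. The condensin I subunits NCAPH (log2 0.72, adjusted p = 4.39e-05) and NCAPD2 (log2 0.49, adjusted p = 0.00635) and separase, ESPL1 (log2 0.73, adjusted p = 0.00874), were higher by less and lay below control with both pools. In all, 6 of 14 condensin and cohesin genes were higher and 8 were not called, and the count was 11 without replicate 3 of every group.

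The cell cycle homology region, TTTGAA on either strand, is the letter pattern by which the DREAM complex is known to hold G2 and M phase genes silent in resting cells. It was found in 9.38% of all windows, 13.2% of those of genes called higher and 8.93% of those called lower, and in 9 of 13 kinesin, 11 of 19 kinetochore and 7 of 12 condensin and cohesin windows. The windows of KIF4A and of PRC1, a spindle midzone factor chosen after its value was seen (log2 0.71 ± 0.10, adjusted p = 1.43e-04), are shown from 120 bases before the start to 20 after it, with TTTGAA in capitals. KIF4A lies at chrX:70289984-70290123, plus strand, with its match at -34, and PRC1 at chr15:90994516-90994655, minus strand, with its match at -20. Both genes were picked with their values and matches seen, from genes called higher whose window held a match.

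KIF4A: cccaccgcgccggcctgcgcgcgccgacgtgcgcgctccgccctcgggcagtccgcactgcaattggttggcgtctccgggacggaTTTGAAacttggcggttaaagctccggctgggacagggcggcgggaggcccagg
PRC1: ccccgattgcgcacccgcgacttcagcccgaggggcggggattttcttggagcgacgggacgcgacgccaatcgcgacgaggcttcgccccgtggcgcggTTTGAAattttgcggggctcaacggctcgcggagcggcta

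Replication histone genes were higher with E2F1 siRNA, 21 of the 50 that passed the filter on low counts of 87 listed, with 29 not called (median log2 0.67). HIST1H1B, a linker histone gene, stood at 117, 112 and 127 CPM with E2F1 siRNA and 62.0, 53.2 and 74.4 CPM with E2F2 siRNA (log2 0.91 ± 0.16, adjusted p = 4.93e-04). HIST1H4B (log2 0.73, adjusted p = 4.54e-05), HIST2H2AB (log2 1.33, adjusted p = 7.27e-04) and HIST1H4E (log2 0.81, adjusted p = 0.00101) were higher as well. Genes of the same histone type are near-identical copies of each other, so reads could have been split between them. The higher count of the histone list was 7 without E2F2 siRNA replicate 2, 10 without E2F1 siRNA replicate 3, 11 without E2F2 siRNA replicate 1, 13 without E2F1 siRNA replicate 2 and 36 without replicate 3 of every group. Chromatin assembly and DNA methylation genes had 6 of 14 higher and 8 not called. NASP, a histone chaperone, stood at 145, 144 and 143 CPM with E2F1 siRNA and 96.3, 75.4 and 97.6 CPM with E2F2 siRNA (log2 0.68 ± 0.087, adjusted p = 3.86e-05). ASF1B (log2 1.05, adjusted p = 7.17e-04), UHRF1 (log2 0.91, adjusted p = 7.71e-04) and the maintenance methyltransferase DNMT1 (log2 0.71, adjusted p = 7.76e-04) had the same direction.

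DNA repair by homologous recombination and the Fanconi pathway had 13 of 25 genes higher and 12 not called (median log2 0.65), and the count was 8 without E2F2 siRNA replicate 2 and 20 without replicate 3 of every group. EME1, a nuclease subunit, stood at 11.0, 11.1 and 12.4 CPM with E2F1 siRNA and 3.89, 5.02 and 5.91 CPM with E2F2 siRNA (log2 1.22 ± 0.17, adjusted p = 9.03e-05). UBE2T, the Fanconi ubiquitin-conjugating enzyme (log2 0.65, adjusted p = 7.36e-05), and FANCC (log2 0.66, adjusted p = 9.52e-05) were higher. PMS2, of mismatch repair, went the other way, at 45.1, 49.3 and 47.7 CPM with E2F1 siRNA and 85.4, 98.4 and 102 CPM with E2F2 siRNA (log2 -1.01 ± 0.086, adjusted p = 7.17e-07). With E2F1 siRNA it lay near control (-0.13) and with E2F2 siRNA above it (0.88).

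Of 27 targets of p53, 7 were lower with E2F1 siRNA and 20 were not called (median log2 -0.13), where 13.1% of all tested genes were lower. Of the 27 values, 11 were above 0. With 1 library left out, 5 to 6 genes were lower and 0 to 2 higher. Relative to control the list median was 0.052 with E2F1 siRNA and 0.062 with E2F2 siRNA, so the genes given here do not stand for the whole list. GDF15, a stress-induced cytokine, stood at 194, 164 and 215 CPM with E2F1 siRNA and 457, 502 and 620.3 CPM with E2F2 siRNA (log2 -1.46 ± 0.27, adjusted p = 8.87e-04), with control libraries at 139, 121 and 186 CPM. GADD45A, a growth arrest gene, stood at 9.60, 9.71 and 10.6 CPM with E2F1 siRNA and 14.5, 18.6 and 17.7 CPM with E2F2 siRNA (log2 -0.76 ± 0.12, adjusted p = 3.39e-04). TNFRSF10B, a death receptor, had log2 -0.48, adjusted p = 1.86e-04, and SPATA18, a mitochondrial quality control gene, had log2 -0.74, adjusted p = 0.00225. Neither group overlapped the other in these 4 genes. All 4 lay nearer control with E2F1 siRNA than with E2F2 siRNA. Relative to control the values with E2F1 siRNA were GDF15 0.36, GADD45A 0.37, TNFRSF10B -0.079 and SPATA18 -0.068. With E2F2 siRNA they were GDF15 1.83, GADD45A 1.13, TNFRSF10B 0.40 and SPATA18 0.68.

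Of 17 genes of the BCL2 family and caspases, 5 were lower with E2F1 siRNA and 12 were not called (median log2 -0.060), where 13.1% of all tested genes were lower. PMAIP1, the p53 target that encodes NOXA, stood at 6.81, 7.67 and 7.40 CPM with E2F1 siRNA and 22.1, 22.0 and 14.6 CPM with E2F2 siRNA (log2 -1.42 ± 0.25, adjusted p = 5.84e-04). BMF, another pro-death member, stood at 12.6, 15.3 and 16.1 CPM with E2F1 siRNA and 25.6, 29.3 and 32.6 CPM with E2F2 siRNA (log2 -0.99 ± 0.15, adjusted p = 1.77e-04). BCL2 itself, which opposes death, stood at 3.69, 4.45 and 4.00 CPM with E2F1 siRNA and 9.72, 7.61 and 6.32 CPM with E2F2 siRNA (log2 -0.96 ± 0.23, adjusted p = 0.00614). The lower members thus included both pro-death and pro-survival genes. The count of lower genes was 3 without E2F2 siRNA replicate 1, E2F1 siRNA replicate 2, E2F2 siRNA replicate 2 or E2F1 siRNA replicate 3.

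Ribosomal protein genes were higher with E2F1 siRNA than with E2F2 siRNA and lay near control. Of 85 cytosolic ribosomal protein genes tested, 70 were higher with E2F1 siRNA and 3 were lower (median log2 0.62). Together they held 5.27 ± 0.141% of all counts with E2F1 siRNA, 3.36 ± 0.0610% with E2F2 siRNA and 5.38 ± 0.214% with control siRNA (SD, n = 3). RPL14 stood at 512, 504 and 487 CPM with E2F1 siRNA and 298, 293 and 291 CPM with E2F2 siRNA (log2 0.77 ± 0.062, adjusted p = 4.33e-07). RPL3 stood at 1956, 1917 and 1951 CPM with E2F1 siRNA and 1193, 1136 and 1087 CPM with E2F2 siRNA (log2 0.77 ± 0.067, adjusted p = 8.57e-07). RPL5, which also binds MDM2, stood at 527, 497 and 512 CPM with E2F1 siRNA and 311, 299.7 and 296 CPM with E2F2 siRNA (log2 0.76 ± 0.065, adjusted p = 7.22e-07). Relative to control the values with E2F1 siRNA were -0.037 (RPL14), 0.069 (RPL3) and 0.014 (RPL5), none of them called. The genes were lower with E2F2 siRNA (-0.81, -0.70 and -0.75). RPL23 had log2 0.86, adjusted p = 7.37e-07. The 3 lower genes were the ribosomal protein paralogues RPL3L, at 0.410, 0.219 and 0.426 CPM with E2F1 siRNA and 1.01, 1.51 and 1.83 CPM with E2F2 siRNA (log2 -2.04 ± 0.49, adjusted p = 0.00657), RPS27L (log2 -0.38, adjusted p = 0.0211) and RPS10L (log2 -0.95, adjusted p = 0.0465). Lower calls there numbered 1 without E2F2 siRNA replicate 2 or E2F1 siRNA replicate 3, where RPS27L lost its call (adjusted p up to 0.106). RPS10L lost its call without any 1 of the 6 libraries (adjusted p 0.0503 to 0.167), with DESeq2 and without replicate 3 of every group. Ribosomal protein genes have many processed pseudogenes, so how reads were shared among copies is uncertain.

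Translation factors moved with the ribosome, 9 of 15 higher and 6 not called (median log2 0.48). EEF1A1, the elongation factor that brings aminoacyl-tRNA to the ribosome, stood at 7686, 7487 and 7540.1 CPM with E2F1 siRNA and 4244, 3991 and 4001 CPM with E2F2 siRNA, against 6967, 6992 and 7244 CPM with control siRNA (log2 0.89 ± 0.055, adjusted p = 2.59e-08). EIF4B, a helicase cofactor of initiation, stood at 947, 889.8 and 902 CPM with E2F1 siRNA and 569, 514 and 497 CPM with E2F2 siRNA (log2 0.79 ± 0.062, adjusted p = 3.01e-07). EEF1B2 (log2 0.69, adjusted p = 3.71e-05) and PABPC1, the poly(A)-binding protein (log2 0.57, adjusted p = 7.01e-05), were higher too. Every library with E2F1 siRNA lay above every library with E2F2 siRNA in these 4 genes.

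MYC and factors that build ribosomes in the nucleolus were higher with E2F1 siRNA, 22 of 26 with 4 not called (median log2 0.49). NOLC1, a nucleolar scaffold, stood at 303, 298 and 289 CPM with E2F1 siRNA and 186, 172 and 176 CPM with E2F2 siRNA (log2 0.74 ± 0.068, adjusted p = 1.51e-06). FBL, fibrillarin, the methyltransferase of ribosomal RNA (log2 0.77, adjusted p = 1.18e-05), DKC1, the pseudouridine synthase (log2 0.60, adjusted p = 1.20e-05), and NOP16 (log2 0.66, adjusted p = 2.65e-04) were higher. MYC, which is held on the list of androgen-repressed genes as well, stood at 182, 183 and 205 CPM with E2F1 siRNA and 104, 97.0 and 123 CPM with E2F2 siRNA, against 241, 247 and 286 CPM with control siRNA (log2 0.81 ± 0.19, adjusted p = 0.00621). The groups did not overlap for MYC, and both pools had means below control (-0.44 and -1.26).

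Host genes of small nucleolar RNAs, whose transcripts are spliced like messenger RNA, went with the ribosomal proteins, and the long nuclear RNAs NEAT1 and MALAT1 went against them. Of 13 tested, 10 were higher with E2F1 siRNA and 2 were lower (median log2 0.83). DANCR stood at 144, 145 and 155 CPM with E2F1 siRNA and 64.6, 61.0 and 61.1 CPM with E2F2 siRNA (log2 1.25 ± 0.11, adjusted p = 7.55e-07). ZFAS1 stood at 51.6, 48.6 and 48.0 CPM with E2F1 siRNA and 26.3, 23.6 and 24.0 CPM with E2F2 siRNA (log2 1.00 ± 0.086, adjusted p = 7.55e-07). GAS5, at 129, 128 and 107 CPM with E2F1 siRNA and 76.6, 69.3 and 59.1 CPM with E2F2 siRNA (log2 0.83 ± 0.16, adjusted p = 0.00121), was higher in all 3 libraries too. SNHG5 (log2 0.94, adjusted p = 8.05e-04), SNHG8 (log2 0.89, adjusted p = 9.97e-05), SNHG12 (log2 0.99, adjusted p = 1.12e-04), SNHG15 (log2 0.43, adjusted p = 0.00455) and SNHG16 (log2 0.65, adjusted p = 1.66e-05) had the same direction. So had EPB41L4A-AS1 (log2 0.99, adjusted p = 3.62e-04), an antisense RNA whose reads cannot be told from those of its overlapping partner without a strand setting. SNHG1 (log2 0.69, adjusted p = 0.0125) was not called without E2F2 siRNA replicate 2 (adjusted p up to 0.0564). SNHG6 was not called (log2 0.23, adjusted p = 0.799). NEAT1, the RNA that builds paraspeckles, stood at 657, 542 and 471 CPM with E2F1 siRNA and 1869, 1445 and 2344 CPM with E2F2 siRNA (log2 -1.76 ± 0.23, adjusted p = 3.93e-05). MALAT1, a nuclear speckle RNA, stood at 23414, 21146 and 16369.5 CPM with E2F1 siRNA and 50389, 49939.7 and 41459.5 CPM with E2F2 siRNA (log2 -1.22 ± 0.32, adjusted p = 0.0111). It was not called without E2F1 siRNA replicate 3 (adjusted p up to 0.0563). MALAT1 alone took 2.00 ± 0.342% of counts with E2F1 siRNA, 4.58 ± 0.408% with E2F2 siRNA and 1.61 ± 0.314% with control siRNA (SD, n = 3), and its part in other results was not tested. The lower count was 1 without E2F1 siRNA replicate 3.

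Many transcripts of the translation machinery begin with a C followed by a run of pyrimidines, a feature known to place their translation under control of the kinase mTOR. A C at the start followed by at least 4 pyrimidines, a pattern chosen after the values of the lists were seen, was found in 5.48% of all windows, in 10.4% of those of genes called higher and in 3.99% of those called lower. It was found in 44 of 68 ribosomal protein windows. The 20 bases before and after the start of 4 such genes are printed with the start C and the pyrimidine run in capitals. These 4 genes were picked with their values and matches seen, from genes called higher. EEF1A1 lies at chr6:73521013-73521052, minus strand, EIF4B at chr12:53006436-53006475, plus strand, RPL14 at chr3:40457319-40457358, plus strand and ZFAS1 at chr20:49278622-49278661, plus strand.

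EEF1A1: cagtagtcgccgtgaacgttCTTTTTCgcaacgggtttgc
EIF4B: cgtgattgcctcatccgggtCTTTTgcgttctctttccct
RPL14: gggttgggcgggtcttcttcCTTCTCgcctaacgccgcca
ZFAS1: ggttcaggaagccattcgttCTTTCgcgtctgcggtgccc

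Targets of ATF4, the factor that answers amino acid shortage, and the serine synthesis pathway were higher with E2F1 siRNA, 9 of 15 with 1 lower (median log2 0.53). PHGDH, the first enzyme of serine synthesis, stood at 241, 266 and 285 CPM with E2F1 siRNA and 131, 124 and 127 CPM with E2F2 siRNA (log2 1.05 ± 0.12, adjusted p = 9.11e-06). PSAT1, the next enzyme, stood at 164, 189 and 165 CPM with E2F1 siRNA and 93.1, 95.4 and 81.6 CPM with E2F2 siRNA (log2 0.94 ± 0.13, adjusted p = 1.08e-04). PSPH, the last, stood at 37.2, 38.9 and 38.5 CPM with E2F1 siRNA and 21.5, 21.4 and 20.2 CPM with E2F2 siRNA (log2 0.86 ± 0.083, adjusted p = 2.23e-06). Asparagine synthetase, ASNS, had log2 1.19, adjusted p = 4.60e-04. The groups did not overlap for these 4 genes. Relative to control the 3 serine enzymes lay lower with E2F2 siRNA (PHGDH -1.20, PSAT1 -0.64, PSPH -0.78) and were not called with E2F1 siRNA (PHGDH -0.15, PSAT1 0.30, PSPH 0.082). ATF3, a stress-induced factor, was the lower member, at 29.8, 34.0 and 33.5 CPM with E2F1 siRNA and 58.1, 66.1 and 56.7 CPM with E2F2 siRNA (log2 -0.89 ± 0.091, adjusted p = 3.64e-06). Lower calls numbered 2 without replicate 3 of every group.

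Amino acid transporters split, with 4 of 14 higher and 3 lower (median log2 -0.14), against 11.0% and 13.1% of all tested genes. SLC43A1, a carrier of large neutral amino acids, stood at 93.7, 85.3 and 98.5 CPM with E2F1 siRNA and 41.3, 34.5 and 45.0 CPM with E2F2 siRNA (log2 1.20 ± 0.16, adjusted p = 5.57e-05). SLC7A1, which carries arginine and lysine (log2 0.65, adjusted p = 1.52e-05), SLC1A5, which carries glutamine (log2 0.78, adjusted p = 6.12e-04), and SLC6A9, which carries glycine (log2 1.15, adjusted p = 0.00707), were higher. SLC1A2, a glutamate carrier best known from astrocytes, stood at 1.07, 1.02 and 0.851 CPM with E2F1 siRNA and 15.9, 18.6 and 15.2 CPM with E2F2 siRNA (log2 -4.06 ± 0.35, adjusted p = 8.23e-07). SLC7A5 (log2 -1.60, adjusted p = 0.00121) and SLC36A1 (log2 -1.03, adjusted p = 4.85e-04) were lower too. The lower count was 7 without replicate 3 of every group.

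Glycolytic and hypoxia genes had 4 of 21 higher and 3 lower (median log2 -0.13), against 11.0% and 13.1% of all tested genes. LDHB, lactate dehydrogenase B, stood at 293, 269.6 and 269 CPM with E2F1 siRNA and 157, 135 and 145 CPM with E2F2 siRNA (log2 0.93 ± 0.11, adjusted p = 1.13e-05). HK2 (log2 0.64, adjusted p = 2.24e-04), HK1 (log2 0.61, adjusted p = 6.51e-04) and PFKM (log2 0.37, adjusted p = 7.60e-04), which act at the entry to glycolysis, were higher, and BNIP3, a hypoxia-induced mitophagy receptor, was lower (log2 -0.41, adjusted p = 0.00498). The lower count was 1 without E2F2 siRNA replicate 1, E2F1 siRNA replicate 2 or E2F1 siRNA replicate 3 and 6 without replicate 3 of every group. In the endoplasmic reticulum, 5 of 20 genes were higher and 2 lower (median log2 0.14). PDIA4, a disulfide isomerase, stood at 454, 459 and 482 CPM with E2F1 siRNA and 229, 221 and 226 CPM with E2F2 siRNA (log2 1.05 ± 0.091, adjusted p = 8.35e-07), and XBP1, a factor of the unfolded protein response, had log2 0.53, adjusted p = 5.50e-05. EDEM1, which sends misfolded glycoproteins to degradation, stood at 112, 102 and 87.7 CPM with E2F1 siRNA and 267, 286 and 219 CPM with E2F2 siRNA (log2 -1.35 ± 0.14, adjusted p = 5.25e-06). The count of higher genes there was 3 without E2F1 siRNA replicate 1, E2F1 siRNA replicate 2 or E2F2 siRNA replicate 3 and 8 without replicate 3 of every group. Lower calls in that list numbered 4 without replicate 3 of every group.

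Fatty acid genes had 2 of 16 higher and 4 lower (median log2 -0.050), against 11.0% and 13.1% of all tested genes. SCD, the stearoyl-CoA desaturase, stood at 1675, 1589 and 1605 CPM with E2F1 siRNA and 2222, 2257 and 1997 CPM with E2F2 siRNA (log2 -0.41 ± 0.063, adjusted p = 1.95e-04). ACSL1, an acyl-CoA synthetase (log2 -0.49, adjusted p = 6.91e-04), and ELOVL1, an elongase (log2 -0.83, adjusted p = 4.36e-05), were lower as well, while ACACA, acetyl-CoA carboxylase (log2 0.23, adjusted p = 0.00896), and FADS1, a desaturase (log2 0.38, adjusted p = 0.00300), were higher. The counts were 7 without replicate 3 of every group for higher genes and 7 without replicate 3 of every group for lower ones. SCD and ACSL1 lay above control with both pools (SCD 0.31 and 0.72, ACSL1 0.55 and 1.04 with E2F1 and E2F2 siRNA).

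Among 42 genes that androgen induces in prostate cells, 12 were higher with E2F1 siRNA and 6 were lower (median log2 0.083), so the list did not move 1 way. KLK2, a kallikrein next to the gene of prostate-specific antigen, stood at 683, 604 and 612 CPM with E2F1 siRNA and 350.1, 317 and 308 CPM with E2F2 siRNA (log2 0.96 ± 0.13, adjusted p = 7.39e-05). ACPP, prostatic acid phosphatase, stood at 202, 209.8 and 202 CPM with E2F1 siRNA and 114, 109.9 and 97.4 CPM with E2F2 siRNA (log2 0.93 ± 0.074, adjusted p = 3.69e-07). AZGP1, a secreted glycoprotein, stood at 90.1, 91.0 and 99.5 CPM with E2F1 siRNA and 47.8, 53.1 and 46.0 CPM with E2F2 siRNA (log2 0.93 ± 0.13, adjusted p = 9.64e-05). These 3 secretory genes lay above control with E2F1 siRNA (KLK2 0.55, ACPP 0.69, AZGP1 0.86). KLK3, which encodes prostate-specific antigen, stood at 2365, 2189 and 2093 CPM with E2F1 siRNA and 1802, 1776 and 1595 CPM with E2F2 siRNA (log2 0.36 ± 0.12, adjusted p = 0.0350). Its call was lost when any 1 of the 6 libraries was left out (adjusted p 0.0514 to 0.129). MAF, a transcription factor, stood at 107, 87.2 and 92.0 CPM with E2F1 siRNA and 226, 238 and 169 CPM with E2F2 siRNA (log2 -1.15 ± 0.13, adjusted p = 8.58e-06), and ADAM7 (log2 -0.96, adjusted p = 0.00195) was lower too. Lower genes numbered 2 without E2F2 siRNA replicate 2, 3 without E2F1 siRNA replicate 1, E2F2 siRNA replicate 1 or E2F1 siRNA replicate 3 and 16 without replicate 3 of every group.

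Of 26 androgen-repressed genes, 11 were lower with E2F1 siRNA and 3 higher (median log2 -0.67). PEG3, an imprinted zinc finger gene, stood at 188, 181 and 179 CPM with E2F1 siRNA and 671, 705 and 741 CPM with E2F2 siRNA (log2 -1.95 ± 0.10, adjusted p = 2.39e-09), with control libraries at 412, 406 and 343 CPM between the pools. OPRK1, the kappa opioid receptor, stood at 4.27, 4.60 and 3.49 CPM with E2F1 siRNA and 12.3, 14.1 and 18.2 CPM with E2F2 siRNA (log2 -1.85 ± 0.15, adjusted p = 4.69e-07). CAMK2N1, an inhibitor of CaM kinase II, stood at 47.8, 51.9 and 53.9 CPM with E2F1 siRNA and 272, 317 and 314 CPM with E2F2 siRNA (log2 -2.55 ± 0.095, adjusted p = 7.27e-11). No library overlapped in these 3 genes. UGT2B11 (log2 1.14, adjusted p = 2.77e-04) and UGT2B28 (log2 1.36, adjusted p = 9.02e-04) were higher. They belong to the UGT2B family, some members of which inactivate androgens by glucuronidation. The UGT2B genes are near-identical and their counts are uncertain.

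Coregulators and pioneer factors of the androgen receptor had 3 of 13 higher and 3 lower. FOXA1, which opens chromatin for the receptor, stood at 468, 464 and 449 CPM with E2F1 siRNA and 367, 345 and 321 CPM with E2F2 siRNA (log2 0.42 ± 0.065, adjusted p = 2.27e-04). KDM1A, a histone demethylase, had log2 0.55, adjusted p = 2.45e-05. NCOR1, a corepressor, stood at 388, 379 and 392 CPM with E2F1 siRNA and 582, 603 and 643 CPM with E2F2 siRNA (log2 -0.66 ± 0.068, adjusted p = 4.51e-06). NCOA3, a coactivator, stood at 40.1, 39.2 and 38.6 CPM with E2F1 siRNA and 75.9, 73.9 and 68.2 CPM with E2F2 siRNA (log2 -0.88 ± 0.15, adjusted p = 4.12e-04). Lower coregulator genes numbered 6 without replicate 3 of every group.

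Of 37 interferon response genes, 1 was higher and 7 were lower, where 24.0% of all genes were called in either direction. RSAD2, an antiviral enzyme, stood at 1.89, 1.24 and 1.62 CPM with E2F1 siRNA and 6.85, 5.85 and 4.99 CPM with E2F2 siRNA (log2 -1.90 ± 0.25, adjusted p = 4.39e-05). OASL stood at 7.55, 8.54 and 6.38 CPM with E2F1 siRNA and 16.3, 18.3 and 13.8 CPM with E2F2 siRNA (log2 -1.10 ± 0.20, adjusted p = 8.99e-04). IFIH1, a sensor of double-stranded RNA, stood at 15.6, 15.1 and 14.5 CPM with E2F1 siRNA and 25.9, 32.7 and 24.3 CPM with E2F2 siRNA (log2 -0.88 ± 0.18, adjusted p = 0.00209). RSAD2 lay above control with both pools (1.29 with E2F1 siRNA, 3.19 with E2F2 siRNA), as did OASL. HERC6 was lower (log2 -0.82, adjusted p = 0.00251) and DTX3L was the higher member (log2 0.53, adjusted p = 0.00184). The higher count was 3 without replicate 3 of every group. The lower count was 4 without E2F2 siRNA replicate 1 or E2F2 siRNA replicate 2 and 13 without replicate 3 of every group. Of 14 genes of antigen presentation by MHC class I, 3 were lower and 11 were not called (median log2 -0.48), where 13.1% of all tested genes were lower. The lower genes were NLRC5, which switches the class I genes on (log2 -1.16, adjusted p = 7.00e-04), TAP1, the peptide transporter (log2 -0.55, adjusted p = 0.00169), and HLA-F (log2 -1.94, adjusted p = 0.00552), a gene with near-identical copies. Their count was 7 without replicate 3 of every group.

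The largest rises with E2F1 siRNA included several contractile genes. ADRA2A, an adrenergic receptor, stood at 85.3, 89.4 and 97.8 CPM with E2F1 siRNA and 12.2, 10.9 and 14.1 CPM with E2F2 siRNA (log2 2.87 ± 0.17, adjusted p = 1.82e-08). Control libraries, at 53.1, 49.5 and 58.7 CPM, lay between the pools. ACTA2, smooth muscle actin, stood at 17.4, 20.4 and 20.1 CPM with E2F1 siRNA and 3.30, 2.76 and 4.16 CPM with E2F2 siRNA (log2 2.50 ± 0.18, adjusted p = 1.35e-07). MYL9, a myosin light chain, stood at 8.37, 7.89 and 11.5 CPM with E2F1 siRNA and 2.45, 1.51 and 2.50 CPM with E2F2 siRNA (log2 2.10 ± 0.24, adjusted p = 1.17e-05). CNN2, a calponin, stood at 62.0, 67.6 and 79.0 CPM with E2F1 siRNA and 19.1, 18.5 and 20.5 CPM with E2F2 siRNA (log2 1.84 ± 0.17, adjusted p = 1.61e-06). ACTA2 and MYL9 lay above control with E2F1 siRNA (2.45 and 1.90) and were not called against control with E2F2 siRNA (-0.048 and -0.20). ACTG2, another smooth muscle actin, had 84 counts over the 3 libraries with E2F1 siRNA and 1 count with E2F2 siRNA, a ratio of 79.9 with a counting interval of 14.0 to 3194. Of 13 contractile genes tested (median log2 -0.013), 6 were higher and 3 lower, among them TPM1, a tropomyosin (log2 -0.46, adjusted p = 3.04e-04). Lower contractile genes numbered 1 without E2F1 siRNA replicate 1, E2F2 siRNA replicate 1, E2F1 siRNA replicate 2 or E2F1 siRNA replicate 3. Of 6 stromal marker genes, none of them in this list, 3 had enough counts and 2 of those were lower with E2F1 siRNA, COL1A1 and COL3A1, the latter not without E2F1 siRNA replicate 2 or E2F2 siRNA replicate 3. The summed level of the 6 was 13.1 to 14.0 CPM with E2F1 siRNA against 22.1 to 28.3 CPM with E2F2 siRNA, most of it COL1A1.

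Other genes with the largest rises were of mixed kinds. SERPIND1, heparin cofactor II, stood at 11.2, 9.35 and 11.2 CPM with E2F1 siRNA and 1.69, 2.01 and 2.00 CPM with E2F2 siRNA (log2 2.47 ± 0.15, adjusted p = 2.63e-08). GSTA1, a glutathione transferase, stood at 10.8, 12.1 and 10.2 CPM with E2F1 siRNA and 1.61, 2.01 and 2.08 CPM with E2F2 siRNA (log2 2.54 ± 0.17, adjusted p = 7.35e-08). Both lay above control with E2F1 siRNA (1.75 and 1.83) and below it with E2F2 siRNA (-0.73 and -0.70). TSC22D3, the glucocorticoid- and androgen-induced leucine zipper gene, stood at 52.5, 51.4 and 52.2 CPM with E2F1 siRNA and 17.7, 16.1 and 15.1 CPM with E2F2 siRNA (log2 1.67 ± 0.10, adjusted p = 2.59e-08). CAPN13, a calpain, stood at 36.7, 39.1 and 36.1 CPM with E2F1 siRNA and 11.7, 13.0 and 12.8 CPM with E2F2 siRNA (log2 1.57 ± 0.095, adjusted p = 2.06e-08). GPX8 (log2 2.17, adjusted p = 1.88e-05), TRGC1 (log2 1.89, adjusted p = 8.23e-07), SEC14L2 (log2 1.74, adjusted p = 2.23e-07), COL7A1 (log2 1.69, adjusted p = 1.66e-04), DOK3 (log2 1.66, adjusted p = 0.00183) and TNS3 (log2 1.64, adjusted p = 1.56e-05) complete the 14 largest rises. All 14 were drawn from called genes with average log2 CPM 1 or more and no overlap between the pools. TRGC1 sits in a T cell receptor locus that prostate cancer cells are known to transcribe, and it lay above control with E2F1 siRNA (1.90) and at control with E2F2 siRNA (0.0097).

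Many of the largest falls were genes near silence with E2F1 siRNA and with control siRNA and present with E2F2 siRNA. KCNK3, a potassium channel, had 0 counts over the 3 libraries with E2F1 siRNA and 201 with E2F2 siRNA, at least 70.4-fold lower with the 3 libraries together set to 3 counts (edgeR adjusted p = 1.31e-07). ABCG2, a drug efflux pump, stood at 0.246, 0.0730 and 0 CPM with E2F1 siRNA and 5.32, 10.5 and 8.99 CPM with E2F2 siRNA (log2 -6.16 ± 0.54, adjusted p = 9.49e-07). AOC1, diamine oxidase, stood at 0.575, 0.438 and 0.851 CPM with E2F1 siRNA and 29.2, 34.0 and 44.4 CPM with E2F2 siRNA, against 0.668, 1.21 and 1.99 CPM with control siRNA (log2 -5.85 ± 0.45, adjusted p = 2.40e-07). In each of these the E2F2 siRNA libraries stood alone: relative to control AOC1 differed by 4.83 with E2F2 siRNA (adjusted p = 3.34e-07) and by -1.02 with E2F1 siRNA (adjusted p = 0.359). GIMAP6 (log2 -4.56, adjusted p = 2.23e-07), LAMB3, a laminin chain (log2 -3.64, adjusted p = 2.23e-07), and MYOZ1 (log2 -3.49, adjusted p = 1.31e-06) followed the same layout, as did 2 antisense RNAs, CCDC144NL-AS1 (log2 -4.52, adjusted p = 1.05e-07) and MCPH1-AS1 (log2 -3.56, adjusted p = 9.99e-07), whose reads cannot be told from those of their partners. FAM49A differed from control with both pools (-1.67 with E2F1 siRNA, 1.93 with E2F2 siRNA) and by log2 -3.60, adjusted p = 3.51e-07, between them. Counts were low for FAM131B, with 2 against 36 counts (36 over 2 as a scaled ratio of 18.9, counting interval 4.87 to 162), and for IL1B, the cytokine, with 1 against 18 (18.9, 2.99 to 788). Intervals cover counting error only, at 95%.

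The falls with the smallest p-values belonged to genes that were expressed in every library. LYN, a tyrosine kinase of the SRC family, stood at 17.9, 17.8 and 16.6 CPM with E2F1 siRNA and 88.2, 94.0 and 93.7 CPM with E2F2 siRNA, against 25.3, 28.3 and 26.6 CPM with control siRNA (log2 -2.40 ± 0.077, adjusted p = 3.12e-11). S1PR3, a sphingosine-1-phosphate receptor, stood at 7.14, 9.71 and 7.83 CPM with E2F1 siRNA and 108, 114 and 136 CPM with E2F2 siRNA, against 9.62, 8.00 and 7.79 CPM (log2 -3.85 ± 0.13, adjusted p = 3.61e-11). NIPAL3, a magnesium transporter family member, stood at 94.5, 92.8 and 97.6 CPM with E2F1 siRNA and 377, 412 and 389 CPM with E2F2 siRNA (log2 -2.05 ± 0.069, adjusted p = 3.33e-11). With E2F1 siRNA S1PR3 lay at control (-0.041), and LYN and NIPAL3 lay below it (-0.62 and -0.25). With E2F2 siRNA all 3 lay above control (3.81 for S1PR3, 1.78 for LYN). IL36RN, the antagonist of interleukin 36, had log2 -3.45, adjusted p = 6.29e-10.

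In the insulin-like growth factor axis 5 of 9 genes were lower with E2F1 siRNA and 1 higher (median log2 -0.33). IGF2R, the receptor that clears IGF2, stood at 1103, 1091 and 1133 CPM with E2F1 siRNA and 1592, 1636 and 1561 CPM with E2F2 siRNA (log2 -0.53 ± 0.062, adjusted p = 1.53e-05). IGF2, the ligand, was low, at 0.575, 0.511 and 0.426 CPM with E2F1 siRNA and 2.45, 2.34 and 2.50 CPM with E2F2 siRNA (log2 -2.25 ± 0.32, adjusted p = 9.49e-05), and IRS2, an adaptor, was lower too (log2 -0.82, adjusted p = 0.00967). GHR, the growth hormone receptor, stood at 65.0, 64.4 and 59.0 CPM with E2F1 siRNA and 35.6, 29.9 and 36.2 CPM with E2F2 siRNA (log2 0.89 ± 0.17, adjusted p = 0.00101). The higher count was 2 without replicate 3 of every group. IGFBP3, a binding protein of the ligands, was lower under R1881 (log2 -0.57, adjusted p = 0.0206) and was not called without E2F1 siRNA replicate 1, E2F2 siRNA replicate 2 or E2F1 siRNA replicate 3 (adjusted p up to 0.109).

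Of 15 tested genes of ERK feedback and the immediate early response, 2 were higher and 2 lower (median log2 0.094), against 11.0% and 13.1% of all tested genes. SPRED1, an inhibitor of the pathway, stood at 7.06, 7.30 and 4.94 CPM with E2F1 siRNA and 16.6, 15.1 and 14.8 CPM with E2F2 siRNA (log2 -1.26 ± 0.23, adjusted p = 8.88e-04), and FOS was lower too (log2 -1.34, adjusted p = 0.00368). FOS lost its call without E2F1 siRNA replicate 2 (adjusted p = 0.0574). The higher genes were SPRED2, a relative of SPRED1 (log2 0.31, adjusted p = 0.0229), and DUSP4, a phosphatase of ERK (log2 0.41, adjusted p = 0.0452). SPRED2 lost its call without E2F1 siRNA replicate 1, E2F2 siRNA replicate 2, E2F1 siRNA replicate 3 or E2F2 siRNA replicate 3 (adjusted p up to 0.104), and DUSP4 lost it without any 1 of the 6 libraries (adjusted p up to 0.167). The polyamine list, which also holds the anthrax toxin receptor gene ANTXR1, had 4 of 11 members higher and 7 not called (median log2 0.26), and the count was 2 without E2F1 siRNA replicate 1 or E2F2 siRNA replicate 3. SMS, spermine synthase, stood at 551, 516 and 511 CPM with E2F1 siRNA and 389, 381 and 297 CPM with E2F2 siRNA (log2 0.57 ± 0.11, adjusted p = 0.00139). ODC1, ornithine decarboxylase (log2 0.44, adjusted p = 0.00963), lost its call without E2F1 siRNA replicate 1 or E2F2 siRNA replicate 3 (adjusted p up to 0.0522), and SAT1, which acetylates polyamines (log2 0.26, adjusted p = 0.0361), without E2F1 siRNA replicate 1, E2F1 siRNA replicate 2, E2F1 siRNA replicate 3 or E2F2 siRNA replicate 3 (adjusted p up to 0.163). ANTXR1, which makes no polyamine, stood at 5.66, 4.38 and 5.28 CPM with E2F1 siRNA and 2.37, 1.84 and 2.00 CPM with E2F2 siRNA (log2 1.30 ± 0.17, adjusted p = 4.35e-05). Of 6 neuroendocrine and neuronal genes with enough counts, of 14 listed, 2 were lower: ENO2, neuron-specific enolase, at 22.8, 18.3 and 19.7 CPM with E2F1 siRNA and 34.6, 32.4 and 38.9 CPM with E2F2 siRNA (log2 -0.80 ± 0.16, adjusted p = 0.00222), and NAV3 (log2 -1.21, adjusted p = 2.31e-04). The neuroendocrine markers CHGA and INSM1 had no counts in any of the 6 libraries.

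Few nuclear genes of the mitochondrion were called. Of 78 mitochondrial ribosomal protein genes, 8 were higher and 2 lower (median log2 0.15), and of 59 nuclear genes of oxidative phosphorylation, 5 were higher and 4 lower against 11.0% and 13.1% of all genes. MRPL52 (log2 0.71, adjusted p = 0.00292), MRPL22 (log2 0.51, adjusted p = 0.00356), NDUFS1 of complex I (log2 0.38, adjusted p = 0.00289) and NDUFB4 (log2 0.38, adjusted p = 0.00394) were among the higher ones, and COX7A2, of complex IV, was lower, at 91.4, 91.3 and 82.1 CPM with E2F1 siRNA and 126, 143 and 125 CPM with E2F2 siRNA (log2 -0.57 ± 0.10, adjusted p = 4.12e-04). For the mitochondrial ribosome the higher count was 5 without E2F2 siRNA replicate 1 or E2F1 siRNA replicate 2 and 23 without replicate 3 of every group. Its lower count was 1 without E2F1 siRNA replicate 1, E2F2 siRNA replicate 1, E2F1 siRNA replicate 2, E2F2 siRNA replicate 2, E2F1 siRNA replicate 3 or E2F2 siRNA replicate 3 and 5 without replicate 3 of every group. For oxidative phosphorylation the higher count was 2 without E2F1 siRNA replicate 1 or E2F2 siRNA replicate 1, 3 without E2F1 siRNA replicate 2, E2F2 siRNA replicate 2 or E2F1 siRNA replicate 3 and 10 without replicate 3 of every group. Its lower count was 2 without E2F1 siRNA replicate 2, E2F2 siRNA replicate 2 or E2F1 siRNA replicate 3 and 16 without replicate 3 of every group. The 13 genes encoded in mitochondrial DNA had log2 values from -0.18 to 0.14, with 0 called by edgeR, DESeq2 or limma-voom and 0 at an unadjusted edgeR p below 0.05.

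**Figure D3:**
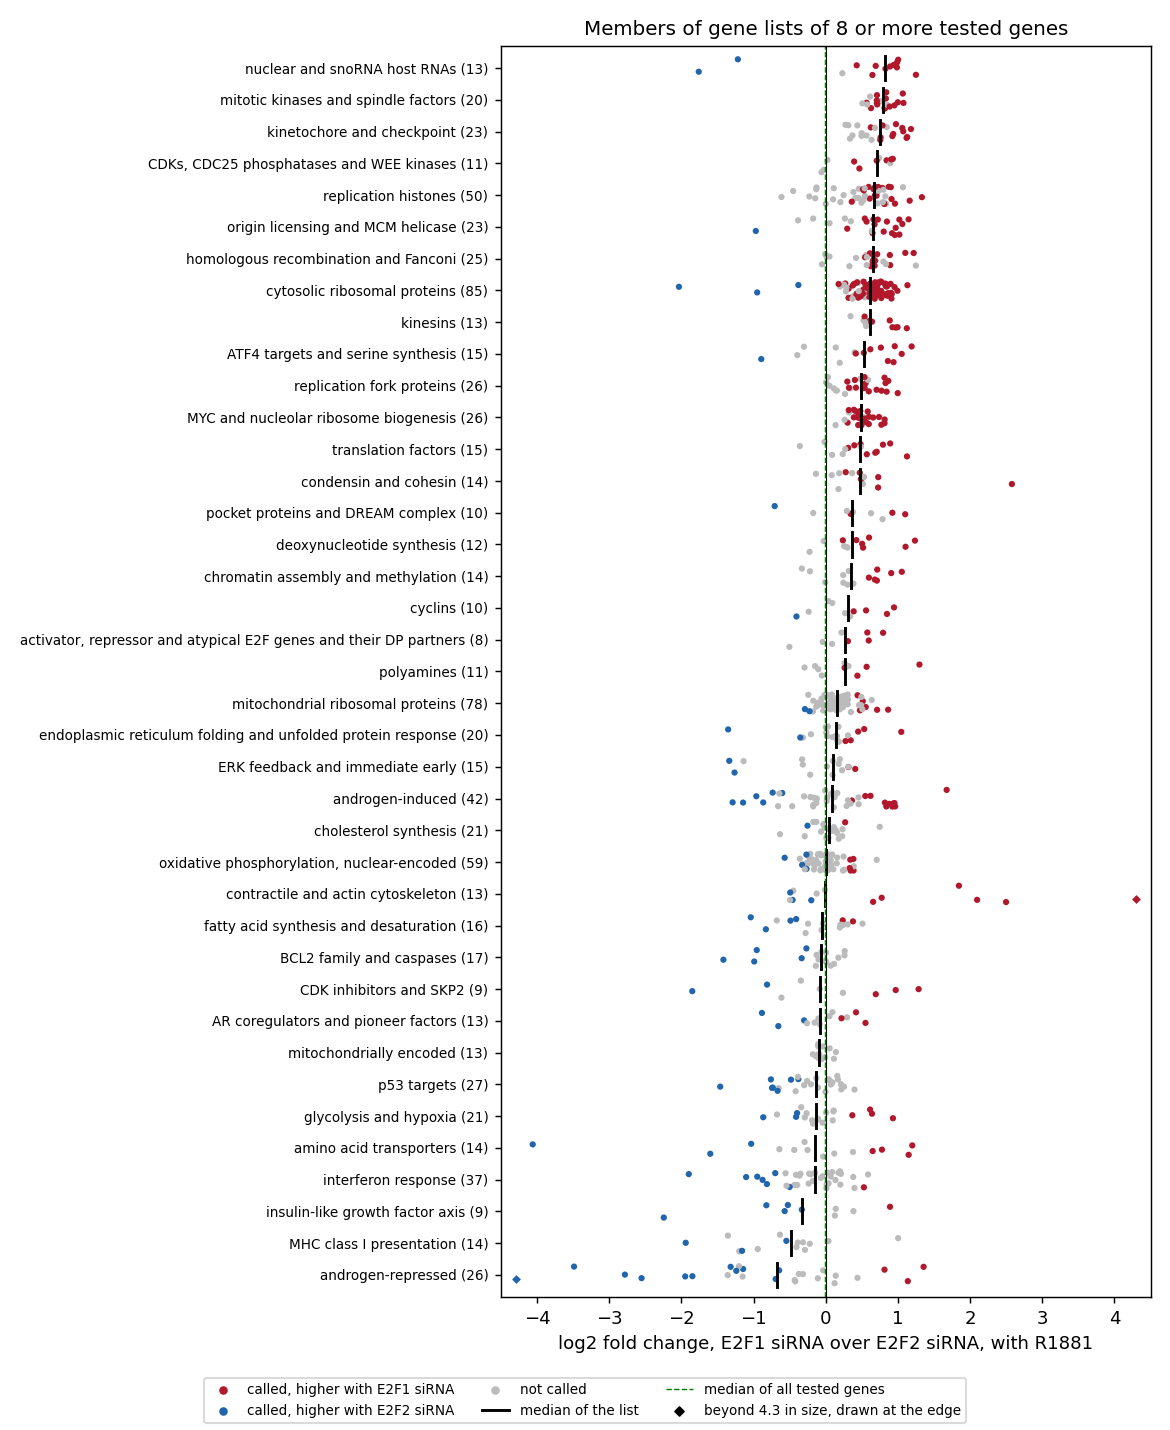
Each point is the log2 difference of 1 tested gene (E2F1 siRNA minus E2F2 siRNA under R1881, horizontal axis), in a row for each list with at least 8 tested genes; bars are list medians, the dashed line is the median of all tested genes at -0.0055, and diamonds at the edge lie beyond the axis. The medians of the replication, mitotic and ribosomal protein (0.62) lists lie above the dashed line, and that of the androgen-repressed genes (-0.67) below it.

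Set against control, the pools held different places for different processes. The median level of the mitotic list relative to the control mean was -0.89 to -0.84 over the 3 libraries with E2F1 siRNA and -1.82 to -1.52 with E2F2 siRNA, and that of the origin licensing list was -0.71 to -0.61 and -1.62 to -1.39. For cytosolic ribosomal proteins it was -0.0095 to 0.028 with E2F1 siRNA and -0.65 to -0.60 with E2F2 siRNA. The medians of these 2 cell cycle lists thus lay below control with both pools and further below with E2F2 siRNA, while NCAPD3, of the condensin list, lay above it with E2F1 siRNA (1.91), and the median of the ribosomal protein list lay near control with E2F1 siRNA and below it with E2F2 siRNA. Androgen-repressed genes lay at -0.36 to -0.32 with E2F1 siRNA and 0.015 to 0.21 with E2F2 siRNA. Both comparisons with control use the same 3 control libraries, so these values are given side by side only.

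**Figure D4:**
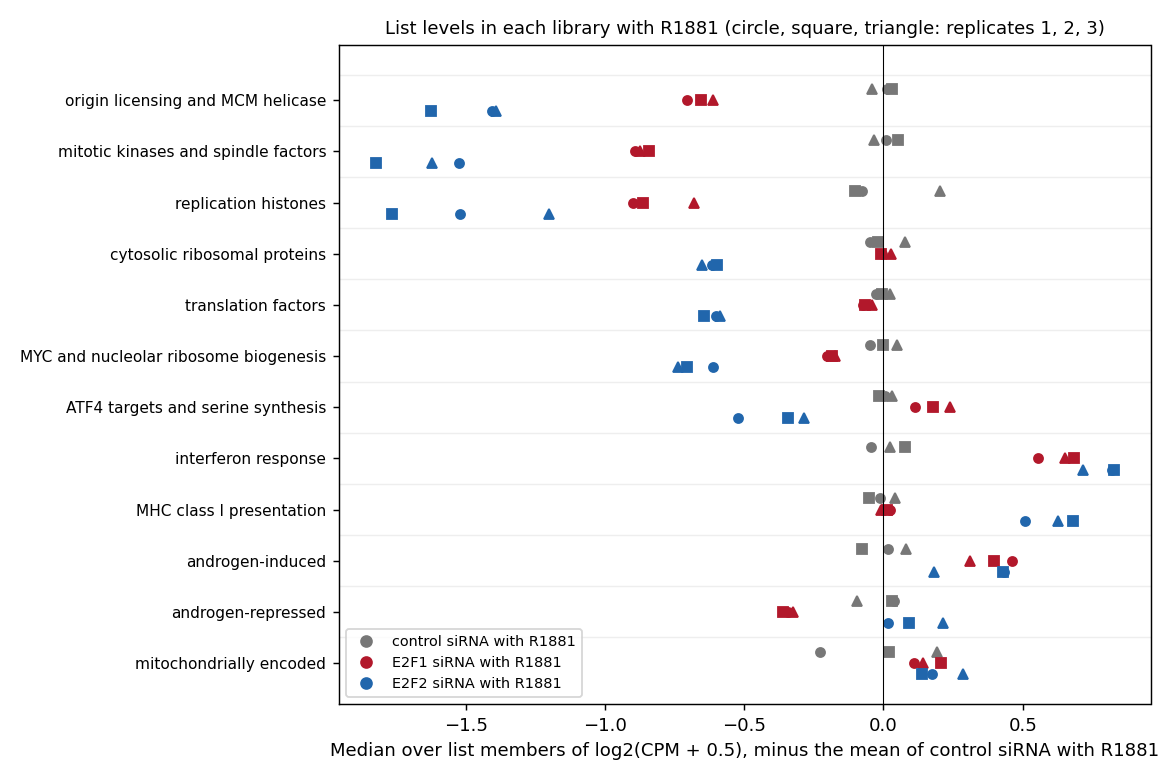
For 12 lists (vertical axis), each point is the median over the tested members of log2(CPM + 0.5) in 1 library minus the mean of the 3 control siRNA libraries with R1881 (horizontal axis), for the control, E2F1 and E2F2 pools with R1881. The cell cycle lists lie below 0 with both E2F pools and lowest with E2F2 siRNA, while the cytosolic ribosomal proteins lie near 0 with E2F1 siRNA and below it with E2F2 siRNA.

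Markers of other cell types were low, and several of those detected differed between the pools. Stromal markers summed to 13.1 to 14.0 CPM with E2F1 siRNA and 22.1 to 28.3 CPM with E2F2 siRNA, with COL1A2 and DCN at 0 counts and COL1A1, a collagen chain, lower (log2 -0.85, adjusted p = 0.00900). Most of this sum was COL1A1, with 1184 counts over the 6 libraries against 150 for COL3A1 and 50 for PDGFRB. Endothelial markers summed to 7.22 to 11.5 and 21.0 to 24.5 CPM, with CDH5 at 0 and VWF, von Willebrand factor, lower (log2 -1.35, adjusted p = 1.28e-05). Almost all of the endothelial sum was VWF, with 1166 counts against 1 for PECAM1 and 2 for KDR. Leukocyte markers summed to at most 0.410 and 1.16 CPM, with PTPRC, CD3E and MS4A1 at 0, and basal markers to at most 2.12 and 2.79 CPM, with KRT5 and TP63 at 0. Neuroendocrine markers summed to 20.7 to 24.9 and 35.6 to 41.8 CPM, mostly ENO2, with 2024 counts against 187 for SYP. These 3 sums therefore describe mainly 1 gene each. The part of these genes in other results was not tested. Within the luminal list KRT18, a keratin, was higher (log2 0.61, adjusted p = 0.00470) and FOLH1, prostate-specific membrane antigen, was lower (log2 -0.65, adjusted p = 5.65e-04).

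The same pools were compared without androgen to see where R1881 alters the contrast. With vehicle 4641 genes (30.6%) were called, 2191 (14.4%) higher and 2450 (16.1%) lower with E2F1 siRNA, and 7022 with the replicate number as a block in a fit to those 6 libraries. With library totals in place of scaling factors, 58.9% of the calls were higher with vehicle, against 47.2% with them. The contrasts share no library. Of the 3648 genes called under R1881, 2735 (75.0%) were also called in the same direction with vehicle, 58.9% of the vehicle list, and 21 were called in opposite directions. The difference between the contrasts was called for 250 genes (1.65%), and with 1 library left out the lowest count, 129, was without E2F1 siRNA replicate 1 with R1881. It was 137 without replicate 1 of E2F1 siRNA or replicate 2 of E2F2 siRNA with vehicle. It was 147 without E2F2 siRNA vehicle replicate 1, 164 without E2F2 siRNA replicate 1, 149 without E2F1 siRNA replicate 2 and 153 without E2F1 siRNA replicate 3. It was 1637 without replicate 3 of every group, where 7670 genes were called with vehicle. Of the 250 differences, 131 (0.863%) were above 0 and 119 (0.784%) below it, 52.4% above, and with library totals 40.5% were above. By absolute size, whatever the sign, the log2 value was larger under R1881 in 83 of these genes and larger with vehicle in 167.

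Cell cycle genes differed in the same direction with and without R1881, with a larger median without it. Over the 9 cell cycle lists together, 152 genes, 89 were higher with E2F1 siRNA under R1881 (median log2 0.59) and 110 with vehicle (median log2 1.03). The difference between the contrasts was called lower for 15 of them and higher for 1, and 141 of the 152 values were below 0. CDC6 stood, with vehicle, at 59.3, 58.0 and 62.1 CPM with E2F1 siRNA and 16.1, 14.9 and 17.1 CPM with E2F2 siRNA (log2 1.90 ± 0.10, adjusted p = 2.15e-09). Under R1881 its value was 1.15, and the difference was called (log2 -0.75 ± 0.13, adjusted p = 0.00701). TYMS stood at 88.8, 82.9 and 87.3 CPM with E2F1 siRNA and 26.8, 27.6 and 28.9 CPM with E2F2 siRNA with vehicle (log2 1.63 ± 0.087, adjusted p = 3.21e-09), and its difference was -0.53 (adjusted p = 0.0351). Over the 3 ribosome and translation lists, 126 genes, 101 were higher under R1881 (median log2 0.57) and 106 with vehicle (median log2 0.75). NCAPD3 went the other way. With vehicle it stood at 107, 113 and 113 CPM with E2F1 siRNA and 66.2, 63.4 and 76.4 CPM with E2F2 siRNA (0.70), and its difference from the R1881 value of 2.58 was called (log2 1.88 ± 0.20, adjusted p = 7.60e-05).

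Between the treatments MAP1B and NPC1 changed the direction of their difference, and GRIN3A and KLK3 had a smaller difference under R1881. GRIN3A, a glutamate receptor subunit, stood at 29.3, 30.9 and 29.8 CPM with E2F1 siRNA and 3.98, 4.53 and 4.31 CPM with E2F2 siRNA with vehicle (log2 2.81 ± 0.11, adjusted p = 1.88e-10). Under R1881 it stood at 45.7, 39.6 and 47.7 CPM with E2F1 siRNA and 28.1, 29.5 and 31.7 CPM with E2F2 siRNA (log2 0.57 ± 0.094, adjusted p = 3.39e-04). MAP1B, a microtubule-associated protein, was higher with E2F1 siRNA with vehicle (log2 0.39 ± 0.071, adjusted p = 5.65e-04) and lower under R1881 (log2 -0.79 ± 0.072, adjusted p = 1.18e-06). Under R1881 it stood at 722, 803 and 787 CPM with E2F1 siRNA and 1255, 1336 and 1417 CPM with E2F2 siRNA. NPC1, a cholesterol transporter of the lysosome, also changed direction, from 0.43 with vehicle to -0.64 under R1881 (difference log2 -1.07 ± 0.092, adjusted p = 1.33e-05). KLK3 stood at 235, 197 and 187 CPM with E2F1 siRNA and 53.9, 44.2 and 66.3 CPM with E2F2 siRNA with vehicle (log2 1.91 ± 0.12, adjusted p = 2.06e-08). Under R1881 its value was 0.36. In MAP1B and NPC1 the libraries of the pools did not overlap with either treatment.

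**Figure D5:**
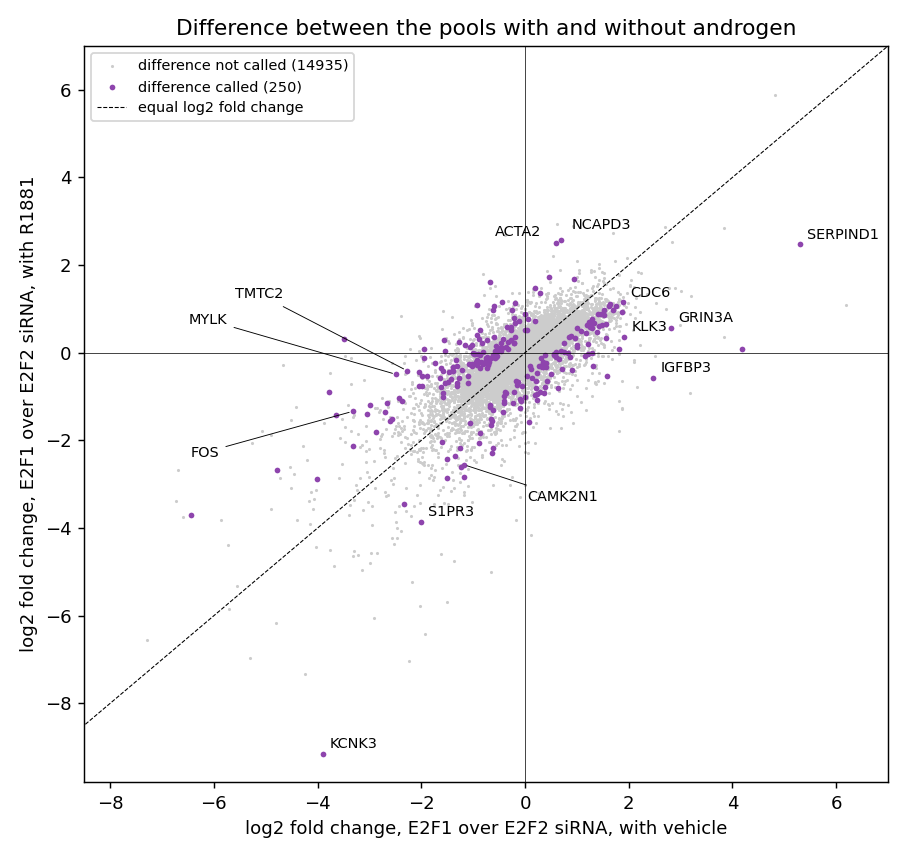
Each point is 1 tested gene, with the log2 difference E2F1 siRNA minus E2F2 siRNA with vehicle on the horizontal axis and under R1881 on the vertical axis. Coloured points are the 250 genes whose difference between the treatments was called; most genes lie along the diagonal, and GRIN3A, KLK3 and IGFBP3 lie well below it.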

How the data were processed

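RNA-seq gene counts of 18 LNCaP libraries (6 groups of 3) were used, of which 6 form the comparison. The deposited values are whole-number counts per gene; per the submitters' processing notes the authors used CASAVA 1.8.2, TopHat2 2.0.13, Picard 1.97 and featureCounts (Subread 1.6.4) with GRCh38, and per the labels' protocols libraries were made by TruSeq RNA Exome capture, so genes outside the probe set are poorly measured. The strand setting and the annotation release are not given in the sources used here, so overlapping genes and near-identical copies are uncertain.

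Counts were tested with edgeR 4.0.16 (R 4.3.3): filterByExpr (minimum count 10, minimum total 15) kept 15185 of 58037 genes, TMM factors scaled the libraries, and quasi-likelihood tests were made on 1 model of the 6 group means over 18 libraries, which then share the estimate of spread. A gene was called at a Benjamini-Hochberg adjusted p below 0.05 over all 15185 genes, and the standard error was taken from the log2 value and its F statistic. The test was checked on simulated counts. No covariate was used. Alternatives were RLE scaling, library totals, other filters, DESeq2 1.42.0, limma-voom (limma 3.58.1), only the libraries compared, the replicate number as a block, an adjusted p below 0.01, and left-out libraries.

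Genes named are E2F1 and E2F2, the 14 largest rises and falls without overlap (average log2 CPM 1 or more), the 6 of smallest p per direction, up to 4 called members of each list per direction, every member of the E2F, cyclin, CDK, inhibitor and nuclear RNA lists, and the 6 genes of smallest p in the difference between treatments. Some genes that meet this rule are not reported here. The members and the gene lists were chosen with earlier results of these data known. A list is described by its counts and median beside those of all genes tested. Deviations from the group means correlated between same-numbered libraries of the pools by 0.183, 0.0911 and 0.320 with R1881. With vehicle they correlated by 0.129, 0.293 and 0.568. All values passed a threshold of 0.1 with vehicle only, so a count with the block is given beside the main one there. The main fits took no libraries as pairs. Replicate 1 of the E2F1 pool with vehicle correlated better with replicate 2 of the E2F2 pool (0.269) than with replicate 1. Promoter windows (250 bases before to 50 after the start, GRCh38.p14) are from RefSeq, and 10189 of 12342 tested protein-coding genes matched by symbol. Gene positions are GENCODE 29.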

Additional observations from a re-analysis of the deposited data

Results flagged for a closer look

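The difference between the R1881 and the vehicle contrast of E2F1 against E2F2 siRNA was tested directly in edgeR, as the R1881 log2 value minus the vehicle log2 value, and 37 of the genes named by the rule or listed with it passed an adjusted p below 0.05. Over all tested genes 250 (1.65%) passed. No explanation was tested for any of them.

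Cell cycle genes made up one set, all higher with E2F1 siRNA under both treatments except CDC25A, which was not called under R1881. Their differences were -0.83 for KIF20A, -0.75 for CDC6, -0.70 for ORC6, -0.66 for FEN1, -0.65 for MCM4, -0.59 for CDC25A, -0.58 for TPX2, -0.56 for KIF4A, -0.55 for BIRC5, -0.53 for TYMS and -0.53 for RFC5. NCAPD3 had the opposite sign, with 1.88, and the repair gene PMS2 had 0.58.

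Among secreted, surface and contractile genes the differences were -3.05 for IGFBP3, -2.83 for SERPIND1, -2.23 for GRIN3A, -1.85 for S1PR3, -1.55 for KLK3, -1.11 for IL36RN, -0.44 for NIPAL3, 0.57 for IGF2R, 1.34 for VWF, 1.49 for JAG1, 1.89 for ACTA2 and 2.00 for MYLK. IGFBP3 was 2.48 with vehicle and -0.57 under R1881, and JAG1, a Notch ligand, was -1.73 with vehicle and -0.24 under R1881, which was not called. KCNK3 had a fitted difference of -5.25, which depends on the prior count because its libraries with E2F1 siRNA and R1881 were all at 0.

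The other values were -1.37 for CAMK2N1, -1.19 for MAP1B, -1.07 for NPC1, -0.63 for MRPL32, -0.41 for GRHL2, 0.73 for TSC22D3, 0.75 for SPRED2, 1.27 for SEC14L2, 1.28 for CDKN2B, 1.87 for TMTC2 and 1.99 for FOS. TMTC2, whose product adds mannose to cadherins, was -2.28 with vehicle and -0.41 under R1881.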

How the results depend on the processing

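The directions of E2F1 and E2F2 and their calls held under every alternative run. Genes called under R1881 numbered 2662 to 2934 when 1 library was left out and 5171 in a fit to only the 6 libraries compared. With the replicate number as a block they numbered 5848 in the fit to all libraries and 7723 in the fit to the 6 compared, where what same-numbered libraries share is not stated and not every pair passed 0.1. The correlation of same-numbered libraries was 0.183, 0.0911 and 0.320, and replicate 2 of the E2F1 pool correlated better with replicate 1 of the E2F2 pool (0.141). An adjusted p below 0.01 left 2128, a 2-fold minimum left 1020, and leaving out replicate 3 of every group gave 6810. With vehicle the counts were 3513 to 4346 with 1 library left out, 6907 and 7022 with the block in the 2 fits, 2961 at an adjusted p below 0.01 and 7670 without replicate 3. For the difference between treatments they were 129 to 198, 732 and 1109 with the block, 93 and 1637, 116 with no filter on low counts and 406 with DESeq2. Scaling by library totals moved the share of higher calls from 45.6% to 48.5% under R1881, from 47.2% to 58.9% with vehicle and from 52.4% to 40.5% for the difference. The cause of these moves was not tested.

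Genes not called changed sign when 1 library was left out: E2F6 ranged from -0.19 to 0.12, CCNE1 from -0.049 to 0.19, CCNG1 from -0.16 to 0.27, CDC25A from -0.067 to 0.0089, WEE1 from -0.12 to 0.012 and CDK6 from -0.16 to 0.16. CCNE1 was -0.090 and CDK6 -0.091 without replicate 3 of every group, and CDC25A 0.012 with no filter. Depth limits the genes of few counts, such as KCNK3, ACTG2, FAM131B and IL1B, to bounds or wide intervals. E2F2 also had few counts with its own pool.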
